A study of Mus musculus with 4 samples.

Results

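The genes examined are 10 members of the interleukin 6 (IL-6) family and its signalling chain in mouse: the ligands Il6, Lif, Osm and Il11, the receptor chains Il6ra, Il6st, Osmr and Lifr, the transcription factor Stat3 and the feedback inhibitor Socs3. They were chosen by symbol, and each of the 10 was found once among the 55357 genes of the count matrices, of which 33943 had a UMI (unique molecular identifier, a tag that marks 1 captured RNA molecule) in the cells kept. The ascending aorta of male wild-type (WT) mice was profiled by droplet-based 3′ single-cell RNA sequencing. Mice of the AD_ABR group had a model of aortic dissection and also received paquinimod (ABR), a small molecule that binds S100A9, at 10 mg/kg per day by gavage (2 libraries), and mice of the AD group had the same model without paquinimod (2 libraries). In both groups the model was made with β-aminopropionitrile (BAPN), which blocks the cross-linking of elastin and collagen, at 1 g/kg per day in drinking water for 4 weeks from an age of 3 weeks. A group of mice without BAPN was not analysed here.

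IL-6 family cytokines signal through receptor complexes that share the chain gp130, the product of Il6st. Il6ra gives IL-6 its specificity, and Lifr and Osmr pair with gp130 for leukemia inhibitory factor (the product of Lif) and oncostatin M (the product of Osm); IL-11 uses a receptor chain of its own beside gp130. The complexes activate JAK kinases, which phosphorylate STAT3, and STAT3 induces Socs3, whose product binds gp130 and ends the signal. In the vessel wall IL-6 is known as a product of adventitial fibroblasts and of activated endothelium, smooth muscle and macrophages.

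After filtering, 37259 cells remained, 8451 and 9872 in the AD_ABR libraries and 9154 and 9782 in the AD libraries. The libraries held 93575612 and 98946431 UMIs in AD_ABR and 76142840 and 99572011 UMIs in AD, and kept cells had median depths of 9452 and 8208 UMIs in AD_ABR and 5268 and 7185 UMIs in AD. Any pair of libraries shared 22 to 38 barcodes, at most 0.347% of a library. Clustering without the 10 genes gave 32 clusters, 23 of which were named from marker lists with the ending -like, so class names were rebuilt here and may differ from the authors'. Tests were possible in 10 classes or clusters with at least 50 cells in each library. Of the classes not tested, neutrophil-like cells numbered 21 and 10 in AD_ABR and 1634 and 232 in AD, proliferating-like cells 47 and 77 in AD_ABR and 380 and 370 in AD, and cluster 13 had 16 and 14 cells in AD_ABR and 325 and 551 in AD. Cluster 13, led by Cxcl5, Serpinb1a, Sfrp4, Lif and Timp1, was left unnamed, and the 7 fibroblast markers summed to 17800 and 25630 CPM (UMIs per 1000000 UMIs of the same cells and library) there in AD_ABR and 12888 and 18431 CPM in AD. The labels do not say that the 2 libraries of a group came from separate animals, so p-values measure only the spread between these libraries, and with 2 against 2 the smallest p of an exact two-sided permutation test would be 0.333.

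The genes of the 10 members lie on 6 chromosomes of GRCm38 (coordinates from GENCODE M21). Lif (chr11:4257557-4272514, plus strand) and Osm (chr11:4236420-4241026, plus strand) are neighbours on chromosome 11, which also holds Stat3 (chr11:100885098-100939540, minus strand) and Socs3 (chr11:117966079-117970047, minus strand). Il6 lies at chr5:30013114-30019981 (plus strand), Il11 at chr7:4772373-4782859 (minus strand), Il6ra at chr3:89864059-89913196 (minus strand) and Il6st at chr13:112464070-112510086 (plus strand). Osmr (chr15:6813577-6874969, minus strand) and Lifr (chr15:7090614-7197489, plus strand) are both on chromosome 15. Stat3 overlaps Stat5a, and Il6ra overlaps the antisense gene Gm42809, each on the opposite strand. The sources used here do not state whether counting used strand, so reads from those overlaps cannot be assigned with certainty.

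Upstream sequences are shown for Il6 and Lif, the ligand genes called in more than 1 class, and for Socs3, the STAT3 target among the members. They come from RefSeq promoters on GRCm38.p6, which matched 9 of the 10 symbols, and are printed 5′ to 3′ on the gene's strand from up to 250 bases before the start, cut short where an annotated exon begins. Capitals mark matches, on either strand, to 5 motifs: STAT (TTCNNNGAA), AP-1 (TGANTCA), CRE (TGACGTCA), C/EBP (TTNNGCAA) and NF-kB.
Il6 (chr5:30012864-30013113, plus strand): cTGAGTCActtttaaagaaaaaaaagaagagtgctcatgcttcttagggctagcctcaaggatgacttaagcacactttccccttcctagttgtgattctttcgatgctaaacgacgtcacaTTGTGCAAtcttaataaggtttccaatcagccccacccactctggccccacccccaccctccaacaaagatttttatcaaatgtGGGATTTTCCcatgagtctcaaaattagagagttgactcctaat
Lif (chr11:4257318-4257556, plus strand): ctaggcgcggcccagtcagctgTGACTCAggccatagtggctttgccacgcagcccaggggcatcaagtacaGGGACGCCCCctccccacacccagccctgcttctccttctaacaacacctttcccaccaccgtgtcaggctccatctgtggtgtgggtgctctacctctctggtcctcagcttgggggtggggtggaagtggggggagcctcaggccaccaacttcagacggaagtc
Socs3 (chr11:117969452-117969616, minus strand): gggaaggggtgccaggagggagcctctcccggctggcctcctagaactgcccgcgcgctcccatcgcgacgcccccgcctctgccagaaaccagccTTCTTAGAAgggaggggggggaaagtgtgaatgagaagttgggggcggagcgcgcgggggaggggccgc
The Il6 window held an AP-1 match 249 to 243 bases before the RefSeq start, a C/EBP match at 128 to 121 and an NF-kB match at 44 to 35. The Lif window held an AP-1 match at 228 to 222 and an NF-kB match at 178 to 169 bases before its start. The Socs3 window held a STAT match at 154 to 146. Among 32851 promoters of 250 bases, 7.02% held the STAT motif, 6.75% the AP-1 motif, 9.56% the C/EBP motif, 7.25% the NF-kB motif and 1.55% the CRE motif. A match describes the letters only.

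Across all kept cells, Lif was the 1 member of the 10 that passed the test, and it fell. By edgeR at an adjusted p below 0.05, 2.46% of the 20196 genes tested were lower and 1.03% were higher. Of the 10 members, 0 were higher, and 7 had an unadjusted edgeR p below 0.05, beside 6317 of the 20196 genes tested. DESeq2 called 3 members, and the share of all genes it called is not given here. The median log2 fold change (AD_ABR minus AD) of the members was −0.50, against −0.02 for all genes tested. In sums over all cells, fewer cells of a type and less RNA per cell cannot be told apart.

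Lif, which encodes leukemia inhibitory factor, had 3.84 and 1.32 CPM in the AD_ABR libraries and 37.1 and 26.1 CPM in the AD libraries. Both AD_ABR libraries lay below both AD libraries, by 11.4-fold in the fit (log2 fold change −3.51 ± 0.52 SE, edgeR adjusted p = 0.0428). The call was lost without AD_ABR replicate 1 (edgeR adjusted p = 0.2), without AD_ABR replicate 2 (0.151) and without AD replicate 1 (0.0989), with log2 fold changes from −4.45 to −2.92. It was also lost with no filter on low counts (−3.48, edgeR adjusted p = 0.133). Most AD molecules of Lif were in cells that were rare in AD_ABR. Cluster 13 and proliferating-like cells together carried 27.2 and 3.51% of the Lif UMIs in AD_ABR and 61.0 and 66.5% in AD. With those cells left out, a step added after seeing the data, Lif had 2.83 and 1.29 CPM in AD_ABR and 19.97 and 11.5 CPM in AD, still without overlap.

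Il6, the founding cytokine of the family, had 58.4 and 69.4 CPM in AD_ABR and 119 and 126 CPM in AD. The AD_ABR libraries were lower without overlap, and the difference stood just short of the threshold (log2 fold change −0.84 ± 0.15, edgeR adjusted p = 0.0515). Fibroblast-like cells carried 78.2 and 86.4% of Il6 UMIs in AD_ABR and 40.9 and 33.7% in AD. Cluster 13 carried 5.44 and 1.20% in AD_ABR and 30.7 and 26.2% in AD, and proliferating-like cells carried 0.141 and 0.400% in AD_ABR and 18.6 and 11.9% in AD. AD replicate 2 differed from AD replicate 1 by cluster 12, an unnamed cluster led by Col8a1 and Ddah1, which held 20.8% of its Il6 UMIs and 1.05% of those of AD replicate 1. Without cluster 13 and proliferating-like cells, Il6 had 56.0 and 69.5 CPM in AD_ABR and 83.3 and 103 CPM in AD.

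**Figure D1:**
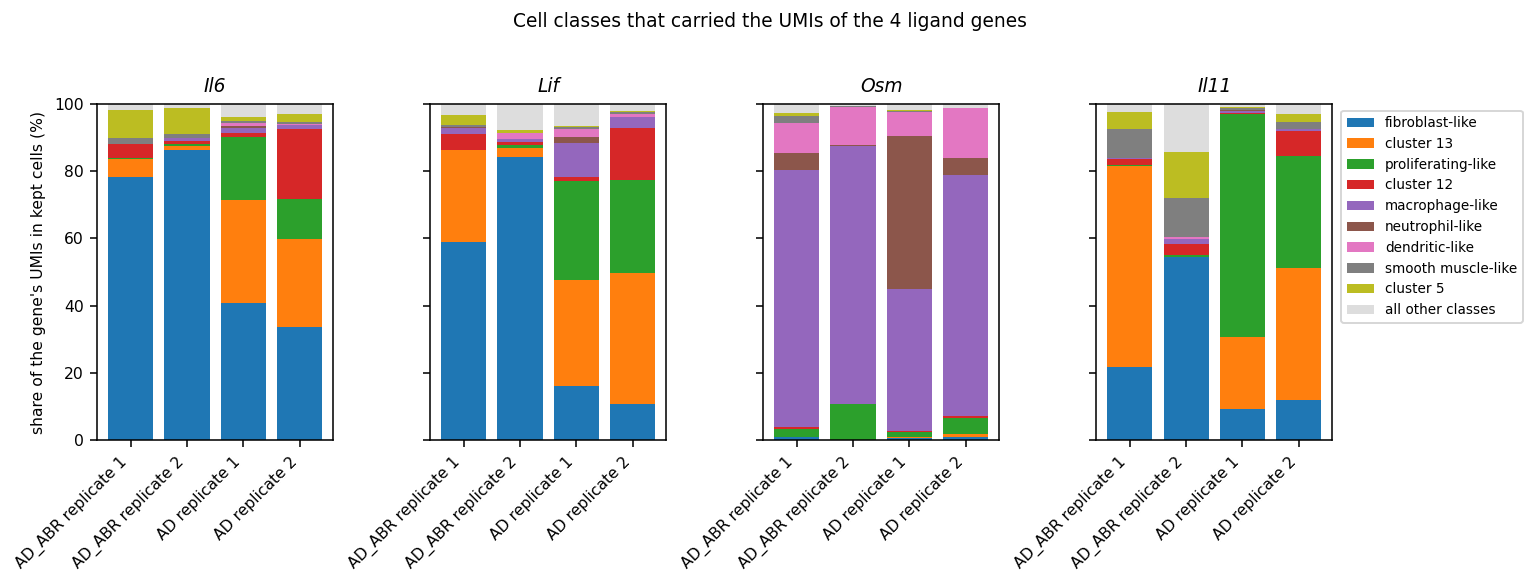
Share of each ligand gene's UMIs (vertical axis, percent) carried by each cell class, 1 bar per library. Fibroblast-like cells held most Il6 UMIs in both AD_ABR libraries (78.2 and 86.4%) and less than that in both AD libraries (40.9 and 33.7%), where cluster 13 and proliferating-like cells took much of the rest.

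Osm, which encodes oncostatin M, a cytokine of myeloid cells, had 3.32 and 4.199 CPM in AD_ABR and 36.0 and 8.93 CPM in AD. All 4 values were apart by group, but AD replicate 1 stood well above AD replicate 2 (log2 fold change −2.46 ± 0.64, edgeR adjusted p = 0.0841). Neutrophil-like cells carried 5.30 and 0.551% of Osm UMIs in AD_ABR and 45.2 and 5.24% in AD, and macrophage-like cells carried 76.3 and 76.6% in AD_ABR and 42.3 and 71.6% in AD. AD replicate 1 held 1079 Osm UMIs in neutrophil-like and 1010 in macrophage-like cells, and AD replicate 2 held 41 and 560; the part of either class in the gap was not tested.

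Il11, which encodes a ligand linked to fibroblast activation, had 5.57 and 1.78 CPM in AD_ABR and 53.6 and 7.20 CPM in AD. The groups did not overlap, yet AD replicate 1 was the 1 library with a high value, and the difference did not pass (log2 fold change −2.92 ± 1.03, edgeR adjusted p = 0.134). A few cells held much of it. Proliferating-like cells carried 0.211 and 0.649% of Il11 UMIs in AD_ABR and 66.4 and 33.3% in AD, and 1 proliferating-like cell of AD replicate 1 held 477 of 2357 UMIs. In AD_ABR replicate 1, the 16 cells of cluster 13 held 284 UMIs, 59.8% of that library's Il11, with 87 in 1 cell, and the 14 cells of cluster 13 in AD_ABR replicate 2 held 0 (a count of 0 allows a share of cells with a UMI of up to 23.2%, exact 95% interval).

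The other 6 members differed less over all cells. Il6st, which encodes the shared signal chain gp130, had 132 and 135 CPM in AD_ABR and 202 and 195 CPM in AD (log2 fold change −0.47 ± 0.12, edgeR adjusted p = 0.0827). Lifr, the receptor chain for leukemia inhibitory factor, had 44.6 and 54.5 CPM in AD_ABR and 39.6 and 41.1 CPM in AD, higher in both AD_ABR libraries without passing (adjusted p = 0.137 by edgeR). Socs3, the feedback inhibitor, was the 1 member whose groups overlapped, with 284 and 347 CPM in AD_ABR and 216 and 293 CPM in AD. Lack of overlap between 2 and 2 libraries corresponds to an exact two-sided permutation p of 0.333. The share of all genes without overlap is not given here, so the members cannot be set against it. Il6ra, Osmr and Stat3 had lower AD_ABR values without overlap, with edgeR adjusted p-values of 0.205, 0.15 and 0.204.

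Within classes, 77 tests of members could be made, of which 9 were called lower and 2 higher. Earlier results of these data were known when the members were chosen, so their shares beside those of all genes are description only. The calls fell in smooth muscle-like, endothelial-like and macrophage-like cells. Smooth muscle-like cells had 4 of 9 members lower, beside 7.91% of all genes lower and 6.35% higher. In endothelial-like cells 3 of 8 were lower, beside 4.02% of all genes lower and 1.52% higher. Macrophage-like cells had 2 of 9 lower and 2 higher, beside 4.18% and 3.80% of all genes. In fibroblast-like cells 0 of 9 members tested were called by edgeR, beside backgrounds of 1.77% lower and 1.40% higher, and DESeq2 called 0. An unadjusted edgeR p below 0.05 was found there for 3 of the 9, beside 3750 of all 15270 genes tested. In the other 6 classes and clusters tested 0 members were called by edgeR or DESeq2, and 0 to 3 members in each had an unadjusted p below 0.05. Of all genes tested, that held for 1526 of 10468 in cluster 11, 924 of 10303 in cluster 12 and 570 of 6175 in cluster 15. It held for 1673 of 11943 in cluster 5, 1229 of 9411 in dendritic-like and 389 of 5016 in Schwann-like cells. The shares of all genes called lower there were 1.02% in cluster 11, 0.0388% in cluster 12, 0.113% in cluster 15, 0.502% in cluster 5, 0.319% in dendritic-like and 0.0997% in Schwann-like cells. The shares called higher were 0.716% in cluster 11, 0.0582% in cluster 12, 0.0162% in cluster 15, 0.394% in cluster 5, 0.202% in dendritic-like and 0% in Schwann-like cells.

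**Figure D2:**
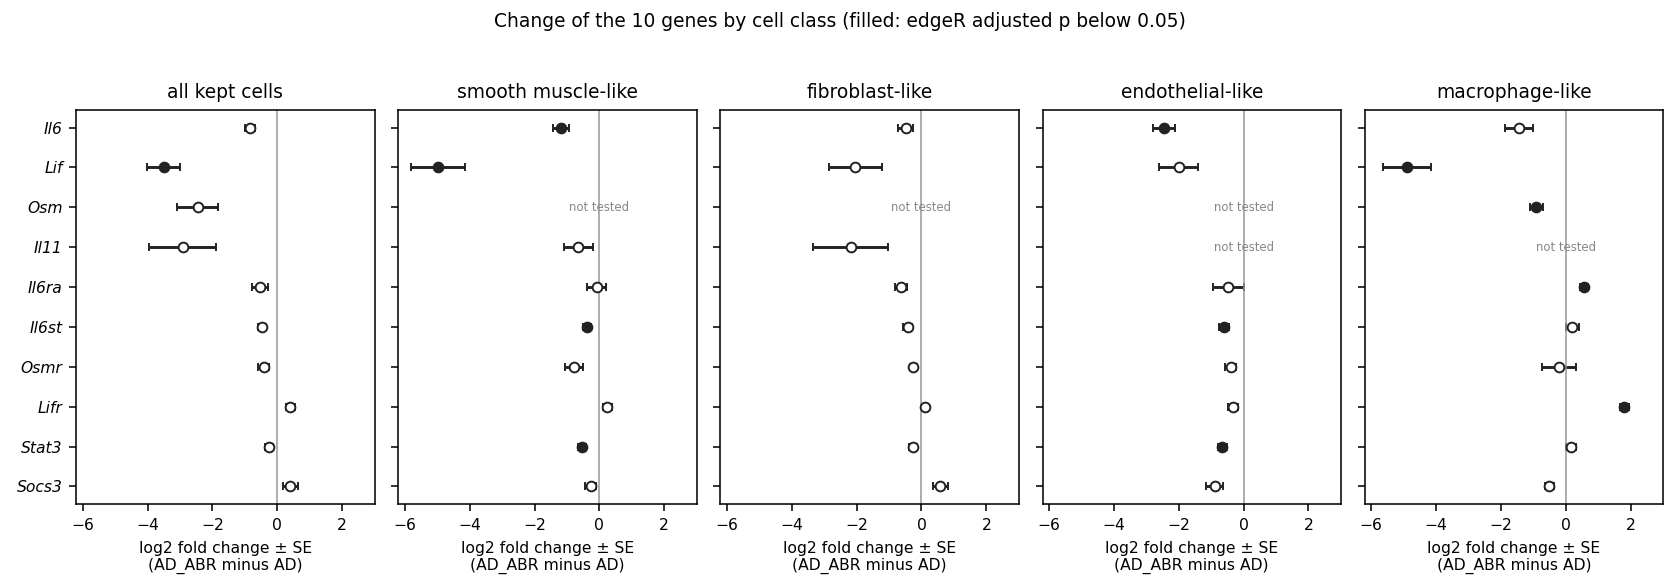
Log2 fold change (AD_ABR minus AD, horizontal axis) with its SE for each of the 10 genes in all kept cells and 4 classes, with filled points where the edgeR adjusted p was below 0.05. Endothelial-like and smooth muscle-like calls were all lower, and macrophage-like cells held calls in both directions; the Lif point in smooth muscle-like cells rests on 2 UMIs in AD_ABR.

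By the mean over the 4 libraries, the Il6 level was highest in cluster 13 and then in fibroblast-like cells, and lowest of the 18 classes ranked in smooth muscle-like cells. In AD replicate 2 cluster 12 stood above both, with 271 CPM. In fibroblast-like cells, which carry the collagen and decorin transcripts of the adventitia, Il6 had 173 and 161 CPM in AD_ABR and 309 and 183 CPM in AD. The groups did not overlap, but AD replicate 2 lay close to AD_ABR (log2 fold change −0.48 ± 0.23, edgeR adjusted p = 0.25). Of fibroblast-like cells, 31.8 and 29.2% had an Il6 UMI in AD_ABR and 39.9 and 38.2% in AD (exact 95% intervals within 27.8 to 33.7% and 36.3 to 42.8%, for counting error only). T-like cells, taken for comparison because T cells are not known as a main source of Il6, had shares of 2.56 and 2.33% in AD_ABR and 2.27 and 2.86% in AD, at median depths of 4242 and 3564 UMIs in AD_ABR and 2010 and 2843 in AD, against 7488 to 8682 in fibroblast-like cells.

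The 3 fibroblast-like clusters were mixed differently in the groups, cluster 1 making up 50.5 and 43.6% of the class in AD_ABR and 15.4 and 18.7% in AD. Among them, Il6 was highest in cluster 4, led by Adamtsl2 and Tcf21, with 291 and 343 CPM in AD_ABR and 336 and 261 CPM in AD. These values overlapped, and cluster 4 had a log2 fold change of 0.12 (edgeR adjusted p = 0.749). Cluster 2, led by Lrrn4cl, C3 and Pi16, had 189 and 111 CPM in AD_ABR and 321 and 180 CPM in AD, and cluster 1, led by Fmod and Inmt, had 77.8 and 98.3 CPM in AD_ABR and 144 and 73.9 CPM in AD. Cluster 13 had 1181 and 282 CPM of Il6 in AD_ABR, from 16 and 14 cells, and 333 and 248 CPM in AD. In AD_ABR replicate 1, 1 cell held 94 of the 271 UMIs, and in AD_ABR replicate 2, 1 cell held 21 of 72. An Il6 UMI was found in 15 of 16 and 7 of 14 cluster 13 cells in AD_ABR and in 229 of 325 and 412 of 551 in AD.

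In endothelial-like cells Il6 fell. It had 4.51 and 3.28 CPM in AD_ABR (12 and 8 UMIs) and 23.8 and 19.1 CPM in AD (40 and 63 UMIs). Both AD_ABR libraries were far below both AD libraries, by 5.46-fold (log2 fold change −2.45 ± 0.33, edgeR adjusted p = 0.000887), in a class where 4.02% of genes were called lower and 1.52% higher. The call was lost with doublets kept (log2 fold change −1.14, edgeR adjusted p = 0.158). The level expected from free RNA, estimated after seeing the data from 7 genes of immune cells, was 2.73 and 1.65 CPM in AD_ABR and 6.13 and 3.21 CPM in AD, so the measured level was 1.65 and 1.98 times that estimate in AD_ABR and 3.88 and 5.94 times in AD. All 7 fibroblast markers had UMIs there, with sums of 987 and 1148 CPM in AD_ABR and 1257 and 1515 CPM in AD, and 6 of 7 neutrophil markers (Ly6g at 0) summed to 21.05 and 0.820 CPM in AD_ABR and 159 and 1.81 CPM in AD; their part in the result was not tested.

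Il6 was low in smooth muscle-like cells, which build the aortic media, and fell there as well. It had 2.06 and 2.37 CPM in AD_ABR (79 and 65 UMIs) and 4.97 and 5.47 CPM in AD (36 and 83 UMIs). The groups were apart by 2.28-fold (log2 fold change −1.19 ± 0.25, edgeR adjusted p = 0.00341), in a class where 7.91% of genes were lower and 6.35% higher. Here the level was close to the free RNA estimate, which was 1.479 and 1.496 CPM in AD_ABR and 2.85 and 3.25 CPM in AD, and ratios of level to estimate were 1.39 and 1.59 in AD_ABR and 1.75 and 1.68 in AD. The estimate itself was lower in AD_ABR, and its part in the call was not tested. Of the 2 clusters of the class, cluster 0 kept the call (log2 fold change −1.16, edgeR adjusted p = 0.0112) and cluster 3 did not (−1.09, 0.121).

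In macrophage-like cells Il6 had 2.74 and 7.72 CPM in AD_ABR and 12.5 and 18.2 CPM in AD (log2 fold change −1.44 ± 0.42, edgeR adjusted p = 0.0886). The change of Il6 in endothelial-like cells was 1.26 lower on the log2 scale than that in smooth muscle-like cells, and in fibroblast-like cells it was 0.81 higher. Neither difference passed its test (edgeR adjusted p = 0.119 and 0.15).

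Lif fell in macrophage-like cells. There it had 5 and 1 UMIs in AD_ABR (1.52 and 0.154 CPM) and 245 and 76 UMIs in AD (24.8 and 12.8 CPM). The AD_ABR libraries were nearly empty of it (log2 fold change −4.90 ± 0.74, edgeR adjusted p = 0.0193), in a class where 4.18% of genes were lower and 3.80% higher. The call was lost without AD_ABR replicate 2 (log2 fold change −3.68, edgeR adjusted p = 0.159), with doublets kept (−3.69, 0.0507) and within cluster 6 alone (−4.53, 0.159). Macrophage cluster 9, led by Arg1 and Cxcl3, had 4.86 and 0 CPM of Lif in AD_ABR, from 23 and 34 cells, and 28.3 and 19.6 CPM in AD.

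In smooth muscle-like cells Lif had 2 and 0 UMIs in AD_ABR and 14 and 11 UMIs in AD, and it was called lower (edgeR adjusted p = 0.000687). The ratio of the summed levels, AD_ABR over AD, was 0.0273 (exact 95% interval 0.00313 to 0.109, counting error only). These levels were 0.537 and 0 times the free RNA estimate in AD_ABR and 2.18 and 1.08 times in AD. Fibroblast-like cells had 8.56 and 2.97 CPM in AD_ABR and 38.0 and 12.1 CPM in AD, lower without passing (log2 fold change −2.04 ± 0.82, edgeR adjusted p = 0.242), and endothelial-like cells had 1.13 and 2.05 CPM in AD_ABR and 9.52 and 4.23 CPM in AD (−2.002 ± 0.61, 0.0761). In T-like cells, which were too few to test, Lif had 0 and 0 UMIs in 39 and 86 cells of AD_ABR and 36 and 7 UMIs in 352 and 175 cells of AD.

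By the mean over the 4 libraries, Lif was highest in cluster 13 and then in proliferating-like cells, but in AD_ABR the proliferating-like level was below that of fibroblast-like cells. Cluster 13 had 388 and 11.8 CPM in AD_ABR and 107 and 76.2 CPM in AD, and 27 of the 89 UMIs of AD_ABR replicate 1 were in 1 cell. A UMI of Lif was found in 8 of 16 and 1 of 14 cluster 13 cells in AD_ABR and in 157 of 325 and 243 of 551 in AD. Proliferating-like cells had 0 and 0.805 CPM of Lif in AD_ABR and 66.0 and 65.1 CPM in AD. That class was mixed differently, with cluster 23 making up 40.4 and 67.5% of it in AD_ABR and 19.5 and 16.5% in AD, and cluster 17 the rest. Cluster 17 had 0 and 0 Lif UMIs in 28 and 25 cells of AD_ABR and 708 and 623 UMIs in 306 and 309 cells of AD.

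Osm was a gene of neutrophil-, macrophage- and dendritic-like cells, which together carried 90.5 and 88.2% of its UMIs in AD_ABR and 94.7 and 91.6% in AD. It fell in macrophage-like cells, with 65.8 and 42.9 CPM in AD_ABR and 102 and 94.2 CPM in AD. The groups did not overlap and differed by 1.88-fold (log2 fold change −0.91 ± 0.20, edgeR adjusted p = 0.034). A UMI was found in 19.8 and 17.7% of macrophage-like cells in AD_ABR and in 28.5 and 32.3% in AD, against 0.177 and 0.0738% of smooth muscle-like cells in AD_ABR and 1.20 and 0.0555% in AD. Macrophage-like cells had median depths of 7147 and 6202 UMIs in AD_ABR and 4946 and 5696 UMIs in AD, and smooth muscle-like cells 10815 and 9600 in AD_ABR and 8390 and 8140 in AD. The neutrophil markers in macrophage-like cells (6 of 7 with UMIs, Ly6g at 0) summed to 49.4 and 38.8 CPM in AD_ABR and 152 and 60.9 CPM in AD, against 17628 to 36307 CPM in neutrophil-like cells; their part in the Osm result was not tested.

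The macrophage-like class was made of different clusters in the 2 groups. Cluster 9 (Arg1, Cxcl3) made up 5.18 and 3.52% of the class in AD_ABR and 41.9 and 45.5% in AD. Cluster 14, led by Cd163, Folr2 and Lyve1, made up 45.9 and 49.4% in AD_ABR and 1.56 and 16.1% in AD. Cluster 6, led by Ms4a7 and Cd72, held a large part in both, with 48.9 and 47.0% in AD_ABR and 56.5 and 38.4% in AD, and it was the 1 macrophage-like cluster with enough cells for a test within it.

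In each library Osm was highest in cluster 9 and lowest in cluster 14, and the part of the cluster mix in the class result was not tested. In cluster 9 Osm had 136 and 81.8 CPM in AD_ABR, from only 23 and 34 cells, and 123 and 134 CPM in AD. In cluster 14 it had 40.5 and 35.1 CPM in AD_ABR and 71.7 and 51.4 CPM in AD, from 28 and 155 cells in AD, lower in AD_ABR without overlap. Within cluster 6 it had 77.5 and 46.7 CPM in AD_ABR and 81.2 and 54.8 CPM in AD, which overlapped (log2 fold change −0.20, edgeR adjusted p = 0.877). The call over the whole class was also lost without AD_ABR replicate 2 (−0.63, 0.318). Neutrophil-like cells, not tested, had 291 and 96.1 CPM of Osm in AD_ABR, from 15 and 2 UMIs, and 419 and 113 CPM in AD.

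Il11 had enough UMIs for a test in fibroblast-like and smooth muscle-like cells and clusters 5 and 12, and it passed in none of them by edgeR or DESeq2. Fibroblast-like cells had 4.57 and 2.60 CPM in AD_ABR and 31.9 and 3.70 CPM in AD. The groups overlapped, and only AD replicate 1 was high, where 1 cell held 214 of the 333 UMIs (64.3%). Smooth muscle-like cells had 1.10 and 0.657 CPM in AD_ABR and 2.48 and 0.857 CPM in AD, which overlapped.

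**Figure D3:**
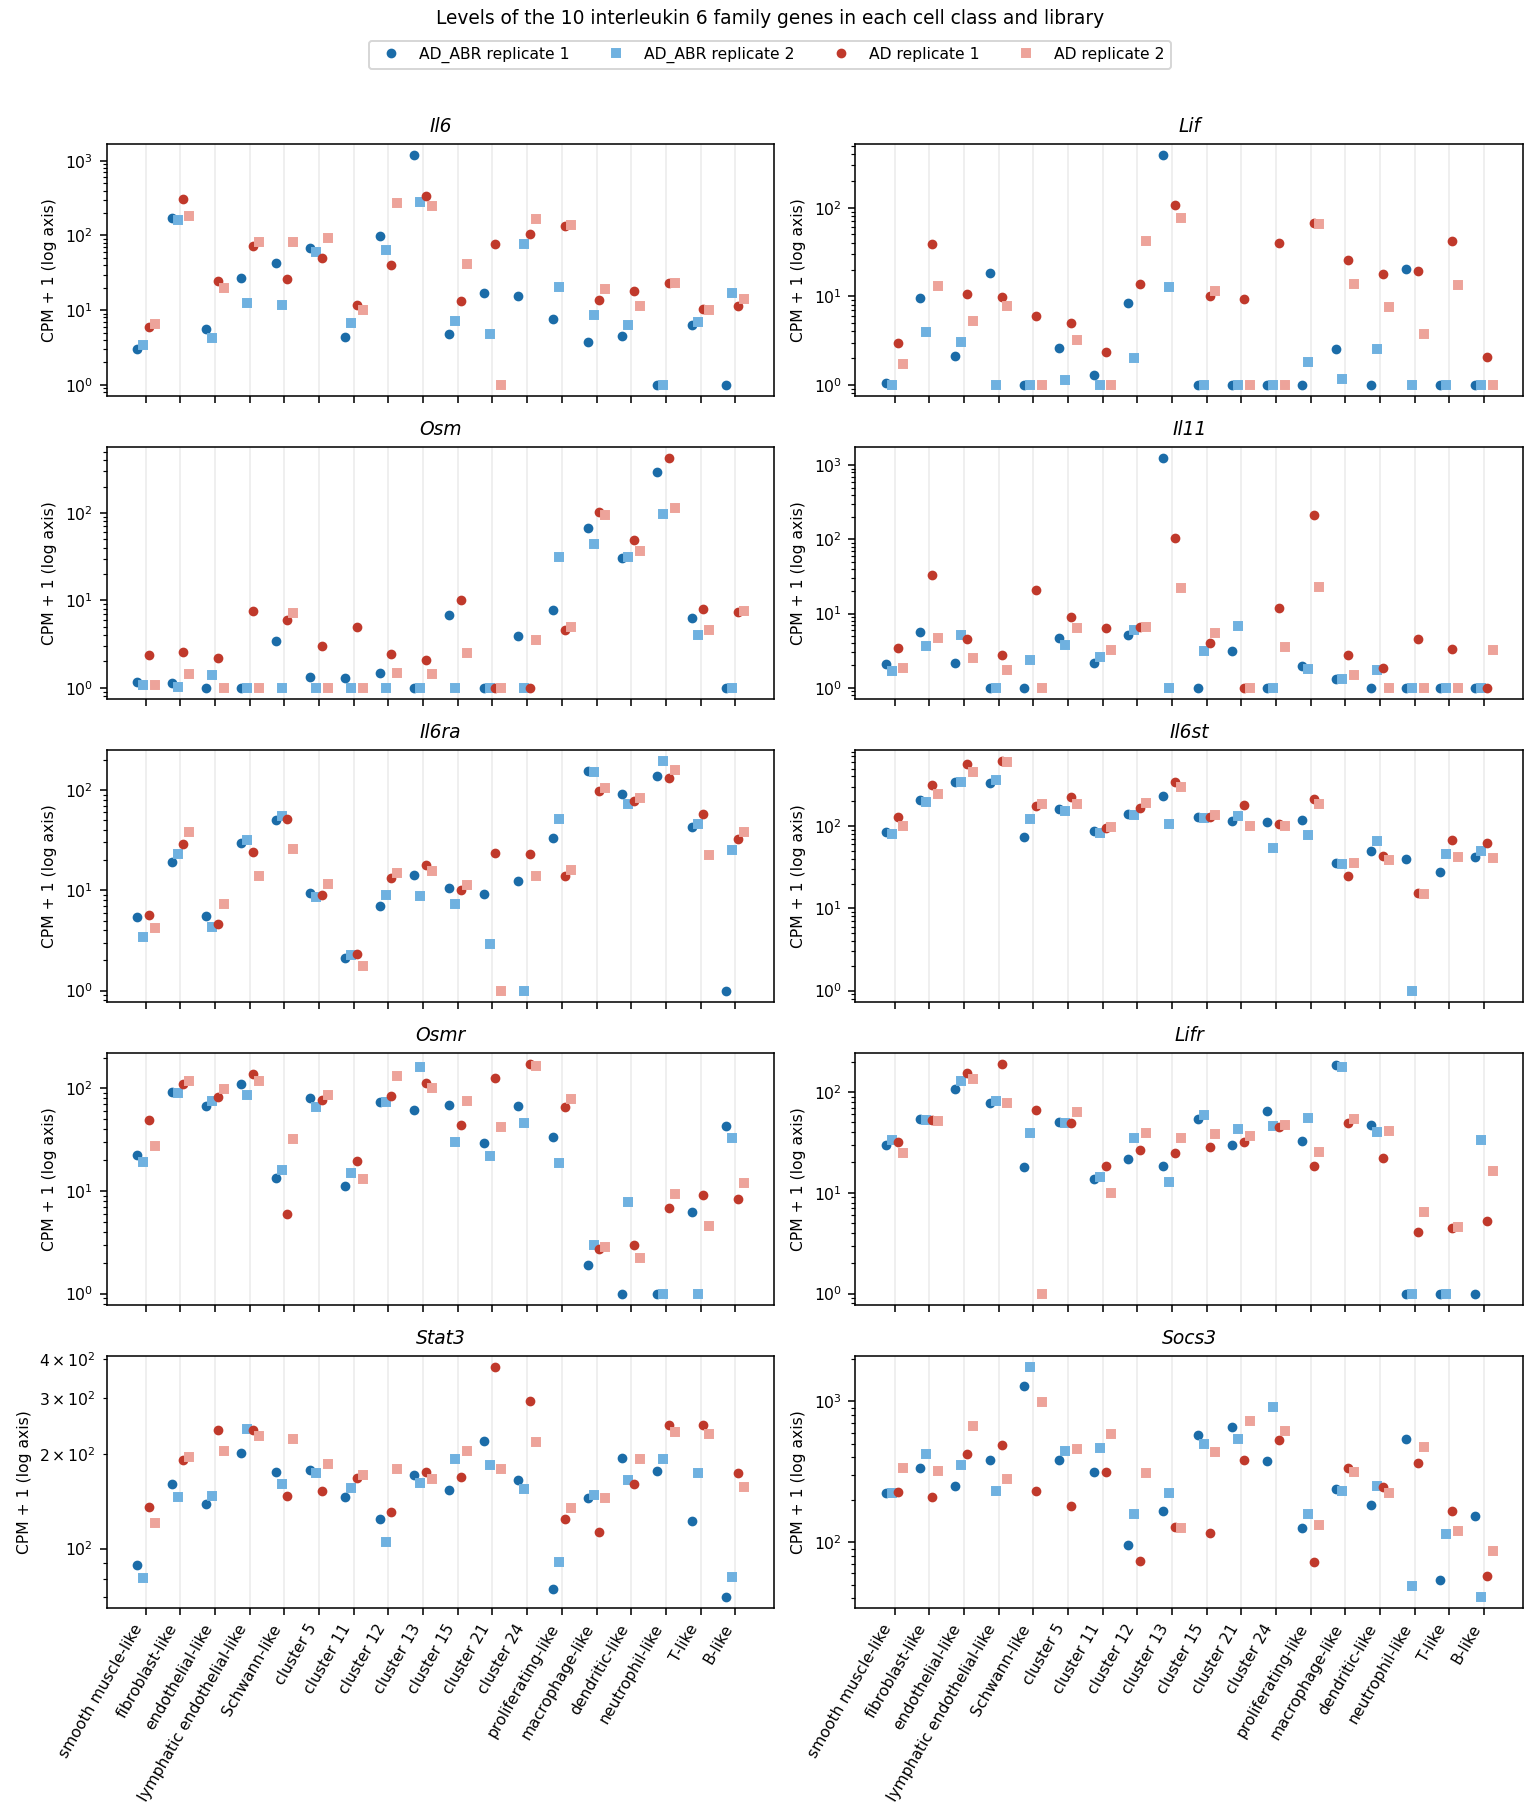
Level of each of the 10 genes (CPM + 1, log axis) in 18 classes and clusters with at least 10 cells per library, with 1 point per library. By the mean over libraries, Osm and Il6ra were highest in myeloid classes, Il6 in cluster 13 and fibroblast-like cells, and Il6st in endothelial classes. Among those resting on few cells in AD_ABR or AD are clusters 13, 21 and 24 and the neutrophil-like, lymphatic endothelial-like and B-like classes.

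Il6ra, which encodes the chain that binds IL-6, had its highest mean levels in myeloid classes. Macrophage-, neutrophil- and dendritic-like cells together carried 43.4 and 51.8% of its UMIs in AD_ABR and 65.1 and 40.9% in AD. Cluster 13, proliferating-like and fibroblast-like cells together carried 32.6 and 37.3% in AD_ABR and 23.2 and 46.3% in AD. The order of Il6ra levels ran from neutrophil-like (132 to 192 CPM over the 4 libraries) through macrophage-like (97.4 to 154 CPM) to dendritic-like cells (71.3 to 91.2 CPM). The ranges of neighbours in that order overlapped for neutrophil- and macrophage-like cells, and the neutrophil-like sums of AD_ABR held 7 and 4 UMIs. Smooth muscle-like cells had 2.44 to 4.69 CPM. Il6ra rose in macrophage-like cells, with 154 and 152 CPM in AD_ABR and 97.4 and 104 CPM in AD. The AD_ABR libraries were 1.49-fold higher without overlap (log2 fold change 0.57 ± 0.13, edgeR adjusted p = 0.0364). In cluster 6 alone the log2 fold change was 0.12 (edgeR adjusted p = 0.892), and cluster 14 had 189 and 206 CPM in AD_ABR and 179 and 179 CPM in AD. The call over the class was also lost by DESeq2 (adjusted p = 0.0504), with doublets kept (0.0837) and without AD_ABR replicate 1 (0.249) or 2 (0.336). In fibroblast-like cells Il6ra was lower without passing, with 18.0 and 22.1 CPM in AD_ABR and 28.2 and 36.9 CPM in AD (log2 fold change −0.64 ± 0.17, edgeR adjusted p = 0.0879).

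Il6st was highest in the lymphatic endothelial-like (331 to 610 CPM) and endothelial-like classes (339 to 572 CPM), whose ranges overlapped, and low in macrophage-like (23.9 to 35.1 CPM) and neutrophil-like cells (0 to 38.8 CPM). The lymphatic endothelial-like class held 37 and 26 cells in AD_ABR, and in AD_ABR replicate 1 a single cell held 30 of its 116 Il6st UMIs. Il6st fell in endothelial-like cells, with 339 and 345 CPM in AD_ABR and 572 and 446 CPM in AD. The groups did not overlap and differed by 1.52-fold (log2 fold change −0.61 ± 0.14, edgeR adjusted p = 0.0242). In smooth muscle-like cells it had 83.1 and 79.5 CPM in AD_ABR and 126 and 98.1 CPM in AD, a 1.31-fold fall (log2 fold change −0.39 ± 0.12, edgeR adjusted p = 0.0413). Leaving out any AD_ABR replicate ended both calls (adjusted p from 0.13 to 0.336), and leaving out AD replicate 1 ended the smooth muscle-like call (0.31). With doublets kept both calls were lost (edgeR adjusted p = 0.0532 in endothelial-like and 0.0562 in smooth muscle-like cells), and the endothelial-like call was lost at Leiden resolution 0.5 (0.055). The smooth muscle-like call was also lost by DESeq2 (0.115), with no filter on low counts (0.0666 by edgeR) and within cluster 0 (0.0529) or cluster 3 (0.0593). In fibroblast-like cells Il6st had 205 and 193 CPM in AD_ABR and 316 and 247 CPM in AD, lower in both without passing (log2 fold change −0.43 ± 0.14, edgeR adjusted p = 0.125).

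Osmr, the oncostatin M receptor chain, was a stromal and endothelial gene with little in macrophage-like cells (0.914 to 2.01 CPM). Its levels in fibroblast-like cells were 92.1 and 89.6 CPM in AD_ABR and 111 and 117 CPM in AD, lower without passing (log2 fold change −0.25 ± 0.11, edgeR adjusted p = 0.205). Smooth muscle-like cells had 21.6 and 18.1 CPM in AD_ABR and 48.0 and 26.2 CPM in AD, also apart without passing (−0.78 ± 0.26, edgeR adjusted p = 0.107), and endothelial-like cells had 66.1 and 74.2 CPM in AD_ABR and 81.5 and 96.8 CPM in AD (−0.40 ± 0.16, 0.185).

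Lifr rose in macrophage-like cells, the larger of the 2 changes called higher. It had 186 and 178 CPM in AD_ABR and 48.5 and 53.0 CPM in AD. The 2 libraries of each group lay close together and the groups were 3.51-fold apart (log2 fold change 1.81 ± 0.14, edgeR adjusted p = 0.0011). The call held under 13 of 14 alternatives, including each left-out replicate, and was lost within cluster 6 (log2 fold change 0.95, edgeR adjusted p = 0.175), where the levels were 126 and 102 CPM in AD_ABR and 64.1 and 50.5 CPM in AD without overlap. Cluster 14 had the highest Lifr, with 286 and 272 CPM in AD_ABR and 179 and 146 CPM in AD. Cluster 9 was low, with 14.6 and 37.5 CPM in AD_ABR and 28.4 and 28.2 CPM in AD. The class shifted from cluster 9 toward cluster 14 in AD_ABR, and levels in clusters 14 and 6 were each higher in AD_ABR without overlap. Cluster 14 held 28 cells in AD replicate 1. The part of the cluster mix in the class result was not tested.

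Elsewhere Lifr did not change past the threshold. Fibroblast-like cells had 53.0 and 52.1 CPM in AD_ABR and 52.1 and 50.5 CPM in AD, which overlapped (log2 fold change 0.11 ± 0.10, edgeR adjusted p = 0.552). Endothelial-like cells, the class with the highest mean level, had 107 and 126 CPM in AD_ABR and 152 and 133 CPM in AD (−0.32 ± 0.15, 0.249), and smooth muscle-like cells had 28.6 and 32.1 CPM in AD_ABR and 30.8 and 23.7 CPM in AD (0.24 ± 0.13, 0.226).

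**Figure D4:**
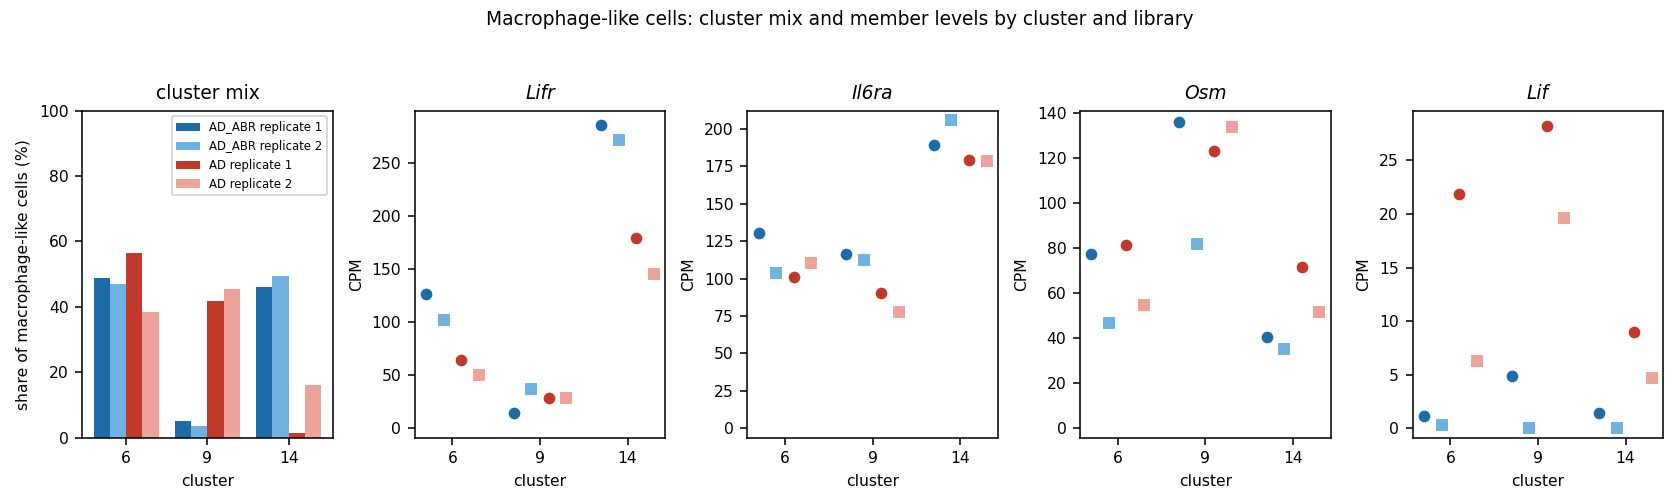
Left, share of macrophage-like cells in clusters 6, 9 and 14 (percent) by library; right, CPM of Lifr, Il6ra, Osm and Lif in each cluster and library. Cluster 14 made up 45.9 and 49.4% of the class in AD_ABR and 1.56 and 16.1% in AD, and Lifr was highest there. Cluster 9 held 23 and 34 cells in AD_ABR, and cluster 14 held 28 cells in AD replicate 1.

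Stat3, which encodes the transcription factor that carries the signal to the nucleus, had mean levels between 105 and 238 CPM in the 18 classes ranked. It fell in smooth muscle-like cells, with 87.6 and 79.4 CPM in AD_ABR and 134 and 119 CPM in AD (1.44-fold, log2 fold change −0.53 ± 0.12, edgeR adjusted p = 0.00487). It fell in endothelial-like cells, with 138 and 146 CPM in AD_ABR and 236 and 203 CPM in AD (1.58-fold, −0.66 ± 0.14, 0.0131). Neither pair of groups overlapped. The smooth muscle-like call was lost without AD_ABR replicate 2 (edgeR adjusted p = 0.0887) and within cluster 3 (0.0642), and the endothelial-like call without AD_ABR replicate 1 (0.255) or 2 (0.22). Macrophage-like cells had 144 and 147 CPM in AD_ABR and 112 and 144 CPM in AD, and fibroblast-like cells had 159 and 144 CPM in AD_ABR and 190 and 194 CPM in AD (log2 fold change −0.27 ± 0.12, edgeR adjusted p = 0.21).

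For Socs3, no change within a class passed, while some differences between classes did. In fibroblast-like cells it had 337 and 421 CPM in AD_ABR and 208 and 322 CPM in AD, higher without overlap (log2 fold change 0.58 ± 0.24, edgeR adjusted p = 0.197). In endothelial-like cells it had 250 and 351 CPM in AD_ABR and 420 and 663 CPM in AD, lower without overlap (−0.90 ± 0.25, 0.0969). Smooth muscle-like cells had 224 and 222 CPM in AD_ABR and 225 and 335 CPM in AD (−0.27 ± 0.17, 0.33), and macrophage-like cells had 238 and 231 CPM in AD_ABR and 338 and 316 CPM in AD (−0.51 ± 0.14, 0.0625). By the mean over the 4 libraries the gene was highest in Schwann-like cells, with 1292 and 1752 CPM in AD_ABR and 231 and 992 CPM in AD. In AD replicate 1 it was lower there than in endothelial-like and macrophage-like cells.

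The test of the difference between classes set each change against that in smooth muscle-like cells, with the library as a block. Of 84 such differences of members, 8 passed. For Socs3, the change in fibroblast-like cells was 0.82 ± 0.13 higher on the log2 scale than that in smooth muscle-like cells (edgeR adjusted p = 0.00177, with 4.58% of genes called for this pair of classes), and that in endothelial-like cells was 0.64 ± 0.14 lower (0.00842, 3.88% called). The change of Lifr was 1.56 ± 0.17 higher in macrophage-like cells (0.00446, 4.38% called) and 0.57 ± 0.14 lower in endothelial-like cells (0.0257). The other 4 that passed were Lif in fibroblast-like cells, Stat3 in cluster 5 (1.22% called), and Socs3 in Schwann-like cells (0.366% called) and cluster 15 (0.147% called). Free RNA was estimated at 49.8 and 7.102% of Schwann-like UMIs in AD_ABR and 7.16 and 3.75% in AD, and at 76.9 and 5.57% of cluster 15 UMIs in AD_ABR and 5.73 and 18.6% in AD; its part in these results was not tested. For the pairs in which 0 members passed by edgeR, 0.507% of genes were called in cluster 11, 0.180% in cluster 12 and 0.796% in dendritic-like cells. All these comparisons share the smooth muscle-like cells.

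The rest of the pathway was read from 7 lists of 60 genes in all. The lists were chosen with earlier results of these data known, so their shares beside those of all genes are description only. By class, 477 tests gave 87 lower and 5 higher calls. In endothelial-like cells 27 of 50 list genes tested were lower by edgeR, beside 4.02% of all genes. Their median log2 fold change was −0.66 beside 0.00 for all genes. In smooth muscle-like cells 21 of 54 were lower and 3 higher, beside 7.91% and 6.35% of all genes (median −0.32 beside −0.02). Macrophage-like cells had 13 of 53 lower and 1 higher, beside 4.18% and 3.80% of all genes (−0.23 beside 0.00). Fibroblast-like cells had 9 of 56 lower, beside 1.77% of all genes (−0.36 beside −0.01).

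The list of regulators of Il6 transcription and mRNA decay had its most calls in endothelial-like cells, where all 10 were lower with a median log2 fold change of −1.38. Tnfaip3, which encodes the NF-kB inhibitor A20, had 35.0 and 23.8 CPM in AD_ABR and 126 and 109 CPM in AD (log2 fold change −2.02 ± 0.19, edgeR adjusted p = 7.44e-05). Rel, an NF-kB subunit, fell by 1.92 on the log2 scale (0.000185) and Nfkbiz, which encodes a nuclear cofactor of NF-kB needed for Il6 induction, by 1.80 (6.18e-05). The list thus holds both activators and inhibitors, and both were lower.

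In smooth muscle-like cells 7 of the 10 regulators were lower, with Tnfaip3 (log2 fold change −1.69), Rel (−1.21) and Arid5a, which encodes a protein that stabilises Il6 mRNA (−1.07), at the head. In fibroblast-like cells 4 of 10 were lower, and Tnfaip3 had 48.6 and 40.9 CPM in AD_ABR and 182 and 130 CPM in AD (−1.73 ± 0.17, edgeR adjusted p = 0.0101). Rel (−1.22) and Nfkb1 (−1.17), which encode NF-kB subunits, followed, while Il6 itself did not pass in these cells. In macrophage-like cells 3 of 10 were lower, Tnfaip3 (−0.79), Nfkb1 (−0.58) and Nfkbia (−0.58), which encodes the inhibitor of NF-kB.

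**Figure D5:**
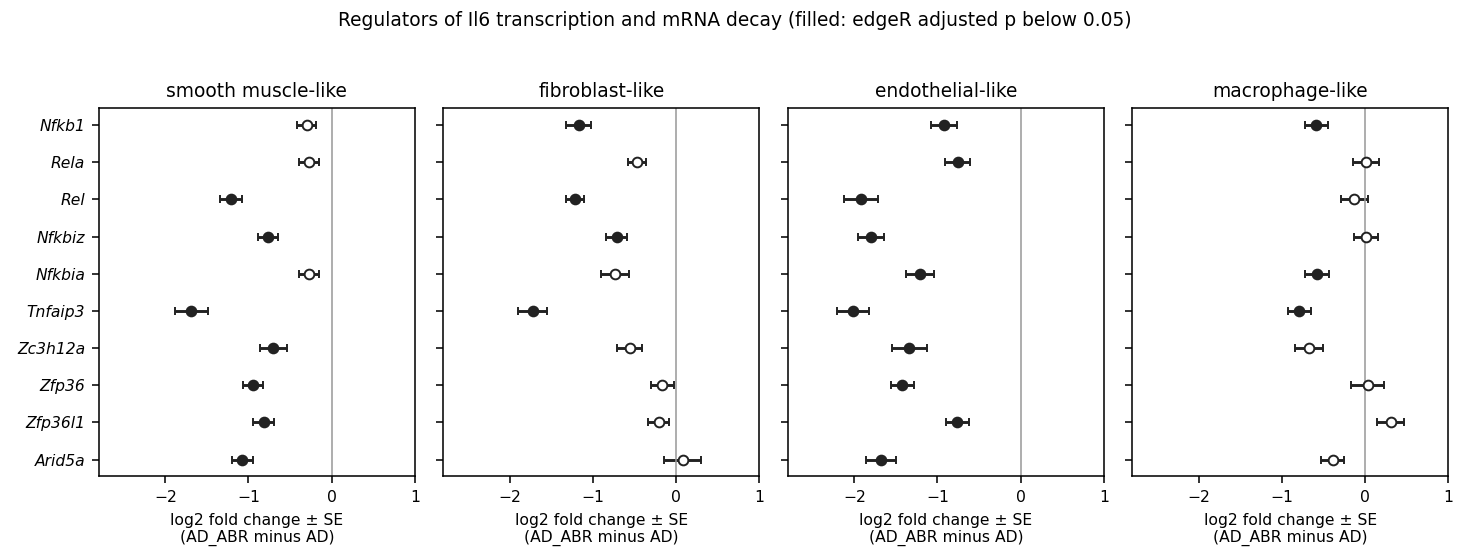
Log2 fold change (AD_ABR minus AD, horizontal axis) with its SE for 10 regulators of Il6 transcription and mRNA decay in 4 classes, with filled points where the edgeR adjusted p was below 0.05. All 10 were called lower in endothelial-like cells, 7 in smooth muscle-like, 4 in fibroblast-like and 3 in macrophage-like cells.

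Of 22 STAT3 target genes, 20 were tested in endothelial-like cells and 12 of those were lower. Ccl2, which encodes a monocyte chemokine, had 5.64 and 13.1 CPM in AD_ABR and 36.9 and 47.2 CPM in AD (log2 fold change −2.24 ± 0.30, edgeR adjusted p = 0.000835). Serpina3n, an acute-phase protease inhibitor gene, fell by 2.17 and Bcl3 by 1.84 on the log2 scale. In smooth muscle-like cells 11 of 22 were lower and 2 higher, with Serpina3n at −2.54 and Ccl2 at −2.11, and with Bcl2l1, a survival gene, at 0.87 and Cebpb at 0.47. Lcn2 was also called lower there, at very low levels of 0.0782 and 0 CPM in AD_ABR and 0.690 and 0.527 CPM in AD. In smooth muscle-like cells 6 of 7 neutrophil markers (Ly6g at 0) summed to 2.89 and 2.59 CPM in AD_ABR and 47.6 and 5.87 CPM in AD. The part of free RNA in the calls on these targets was not tested.

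Macrophage-like cells had 6 of 22 targets lower. Cluster 9 made up 5.18 and 3.52% of that class in AD_ABR and 41.9 and 45.5% in AD. The part of the cluster mix in these and the other pathway calls of macrophage-like cells was not tested. Vegfa, the angiogenic growth factor gene, had 14.9 and 14.4 CPM in AD_ABR and 141 and 116 CPM in AD (log2 fold change −3.17 ± 0.18, edgeR adjusted p = 0.000475), and Timp1, an inhibitor of matrix metalloproteinases, had 7.32 and 6.02 CPM in AD_ABR and 63.0 and 51.3 CPM in AD (−3.16 ± 0.21, 0.000991). Fibroblast-like cells had 3 of 22 lower, and Ccl2 there had 249 and 318 CPM in AD_ABR and 1008 and 979 CPM in AD (−1.74 ± 0.16, 0.00819). Many of these genes also answer to other signals, and these counts do not separate STAT3 from them.

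Negative regulators other than Socs3 went down wherever one was called in these 4 classes, with 1 exception. Cish, which encodes an inhibitor of STAT5 signalling, was lower in endothelial-like (log2 fold change −1.20), smooth muscle-like (−1.48), fibroblast-like (−1.39) and macrophage-like cells (−1.74), and Socs2 (−1.001) and Ptpn2 (−0.93) were lower in endothelial-like cells, all by edgeR at an adjusted p below 0.05. Pias1 was higher in macrophage-like cells (0.59, edgeR adjusted p = 0.034). Of the 7 kinases and other STATs, 2 were lower in endothelial-like cells and 1 in each of the other 3 classes. Jak2, a kinase of the receptor complexes, was lower in endothelial-like (−0.86), fibroblast-like (−0.75) and macrophage-like cells (−0.81), and the smooth muscle-like call was Stat5a (−0.96).

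Of the other ligands and receptors, few were measured and few changed. Clcf1, a ligand of the CNTF receptor, fell in macrophage-like cells, with 3.96 and 4.32 CPM in AD_ABR and 10.1 and 12.8 CPM in AD (log2 fold change −1.47 ± 0.28, edgeR adjusted p = 0.0183). Ctf1, which encodes cardiotrophin 1, a ligand of the gp130 and LIFR pair, was higher in smooth muscle-like cells, with 10.4 and 12.4 CPM in AD_ABR and 8.003 and 7.71 CPM in AD (0.60 ± 0.17, 0.021). Adam10, a protease that can shed the IL-6 receptor, fell in macrophage-like cells (−0.81, adjusted p = 0.0166 by edgeR).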

How the data were processed

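Cells of 2 AD_ABR and 2 AD libraries were analysed. The deposited UMI counts per gene and barcode are raw; the submitters' processing notes name Cell Ranger 6.0, STAR, Seurat 4.0 and GRCm38, and per the file headers the matrices came from Cell Ranger 7.1.0. Which version made the counts, and the strand setting, are not given in the sources used here. Barcodes numbered 9230 and 10939 in AD_ABR and 10069 and 11161 in AD. Barcodes with fewer than 200 genes (1 and 4 in AD_ABR, 14 and 14 in AD), with a mitochondrial share of 20% or more (113 and 132 in AD_ABR, 121 and 463 in AD) or with the highest Scrublet scores, at 0.8% of barcodes per 1000 (665 and 934 in AD_ABR, 791 and 916 in AD), were removed. Cells were clustered with scanpy 1.11.5 (2000 variable genes without the 10 members, of which 5 would have been among them, 30 principal components, 15 neighbours, Leiden resolution 1.0, leidenalg 0.10.2). A cluster took the name of a marker list when at least 3 markers were in 10% of its cells, their mean log2 fold over the other cells was at least 1 and more than 50% of the list passed that fold; the last step was added after a first naming was seen, and clusters 11 and 21 lost a name by it.

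UMIs were summed per library and class and tested with edgeR 4.0.16 (R 4.3.3; limma 3.58.1; TMM, filterByExpr, robust quasi-likelihood fit, AD_ABR minus AD) over all genes, with Benjamini-Hochberg adjustment and a threshold of 0.05. Differences between classes used 1 fit per pair of classes with the library as a block. Fold changes are on the log2 scale and CPM uses the summed UMIs without normalization factors. Free RNA was estimated from 7 genes foreign to non-immune cells or 5 foreign to immune cells, chosen after seeing the data. Alternatives were DESeq2 1.42.0, other scaling, filters, clusterings and left-out libraries. On simulated counts the fit over all cells recovered 74% of genes changed by 1 and 99% of those changed by 2 on the log2 scale. The members and lists were chosen with earlier results of these data known. Named genes were the members and, per list and class, up to 3 called genes in each direction without overlap, by size of change; 1 gene whose level followed Il6 is not reported here. Intervals cover counting error only.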

Additional observations from a re-analysis of the deposited data

Results flagged for a closer look

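The change between AD_ABR and AD was tested for a difference between each class and smooth muscle-like cells, and 8 of 84 such differences of members passed by edgeR. For Lif, the change in fibroblast-like cells was 3.24 ± 0.70 higher on the log2 scale (edgeR adjusted p = 0.014); the smooth muscle-like sums of AD_ABR held 2 and 0 UMIs, so its size depends on the prior count, and the call was lost without AD_ABR replicate 1. For Lifr, the difference was −0.57 ± 0.14 in endothelial-like cells (0.0257, by edgeR) and 1.56 ± 0.17 in macrophage-like cells (0.00446), whose clusters differ between the groups. The endothelial-like difference was lost without normalization factors and without AD replicate 2, AD_ABR replicate 1 or AD_ABR replicate 2, and the macrophage-like one without AD_ABR replicate 1 or 2. For Stat3, the difference in cluster 5 was 0.57 ± 0.13 (edgeR adjusted p = 0.0493), and it was lost without AD_ABR replicate 1 or 2.

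For Socs3, 4 differences passed. They were 0.82 ± 0.13 in fibroblast-like cells (edgeR adjusted p = 0.00177), −0.64 ± 0.14 in endothelial-like cells (0.00842), 1.29 ± 0.26 in cluster 15 (0.00123) and 1.88 ± 0.36 in Schwann-like cells (0.0073). The fibroblast-like difference passed in each of the 5 alternatives run. The others were lost without AD_ABR replicate 1 (endothelial-like), AD_ABR replicate 2 (Schwann-like) or either of these (cluster 15). The fibroblast-like clusters were mixed differently in the groups, and the part of that mix in the difference was not tested. Within clusters 1, 2 and 4 the change of Socs3 was 0.53, 0.14 and 0.88 on the log2 scale (edgeR adjusted p = 0.294, 0.798 and 0.469). Socs3 had 576 and 499 CPM in cluster 15 in AD_ABR and 116 and 438 CPM in AD, and AD replicate 1 was the low library there and in Schwann-like cells. In AD_ABR replicate 1 the free RNA estimate was 76.9% of the UMIs of cluster 15 and 49.8% of those of Schwann-like cells, against 3.75 to 18.6% in the other libraries of these classes, and Socs3 there was 2.64 and 9.14 times the level expected from free RNA. The part of free RNA in these differences was not tested.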

How the results depend on the processing

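Over all kept cells 1 member was lower, against 3 by DESeq2, 2 with doublets kept, 2 with no normalization factors and 0 to 4 with a replicate left out (higher 0 to 1). By class, 9 members were lower, against 20 with no filter on low counts and 4 to 23 with a replicate left out, and 2 were higher, against 1 by DESeq2, 4 at Leiden resolution 0.5, 1 with doublets kept, 4 with no filter and 1 to 6 with a replicate left out. Of the pathway genes 87 were lower, against 135 with no filter and 47 to 124 with a replicate left out, and 5 were higher, against 10 at Leiden resolution 0.5, 22 with no filter and 2 to 36 with a replicate left out. Of the differences between classes 8 passed, against 2 to 19 with a replicate left out. A left-out replicate leaves 1 library in its group, which is assumed to vary like the others. The causes were not tested.

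Replicate numbers were shared by the labels, but same-numbered libraries did not deviate together (correlations of deviations −0.04 over all cells, 0.02 in smooth muscle-like and 0.13 in fibroblast-like cells), so the numbers pair nothing that the data show. With a replicate block 0 members were lower over all cells, Lif having an edgeR adjusted p of 0.0531. By class, 17 tests of members were then called lower and 19 tests of pathway genes higher.

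After thinning, both AD_ABR shares stayed below both AD shares for Il6 in fibroblast-like and Osm in macrophage-like cells, while the order of the 2 libraries of a group changed for Il6 in AD_ABR at 1000 UMIs and for Osm in AD at 3000 UMIs. At 1000 UMIs per cell Il6 was found in 10.8 and 11.6% of fibroblast-like cells in AD_ABR and 15.6 and 13.5% in AD, and at 3000 UMIs in 21.3 and 21.02% in AD_ABR and 28.3 and 25.8% in AD. Osm was found in 4.81 and 3.91% of macrophage-like cells in AD_ABR and 7.57 and 7.84% in AD at 1000 UMIs, and in 10.47 and 10.02% in AD_ABR and 21.7 and 19.3% in AD at 3000 UMIs. Cells left out as too shallow numbered 7 to 60 per library in AD_ABR and 15 to 47 in AD at 1000 UMIs, and 43 to 350 in AD_ABR and 72 to 364 in AD at 3000 UMIs.

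Fold changes that changed sign passed no test. Within single clusters they were Il6 in cluster 4 (0.12), Il6ra in cluster 1 (0.25) and cluster 0 (0.016), Lifr in clusters 1 (−0.0060) and 2 (−0.069) and Osmr in clusters 1 (0.031) and 4 (0.025), and with doublets kept Osmr in macrophage-like cells (0.000175). With a replicate left out, smooth muscle-like Il11 ran from −1.35 to 0.10, Il6ra from −0.56 to 0.25 and Socs3 from −0.55 to 0.10, endothelial-like Il6ra from −0.75 to 0.12, and macrophage-like Il6st from −0.041 to 0.47, Osmr from −0.99 to 0.15 and Stat3 from −0.0077 to 0.33. In the other classes 27 of 488 values of 42 fold changes changed sign, and 0 of those 27 were called. Without normalization factors the median log2 fold change of all genes over all cells moved to −0.13, against −0.02.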

Other observations

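Over 60 sums per library and class (20 classes, 13486 genes), the genes whose log levels followed each ligand most closely were ranked by Pearson's r, as a description in which the sums share libraries and depth. For Il6 they included Serpina3n (0.862) and Meox2 (0.832), and for Lif they were Bcat1 (0.729), Stx11 (0.722) and Acsl4 (0.720). For Osm they were Lilr4b (0.946), Lilrb4a (0.946) and Tyrobp (0.939), and for Il11 they were Rdh10 (0.805), Sec61a1 (0.782) and Bdkrb1 (0.781).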
